A study of Mus musculus with 9 samples.

Results

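The JAK kinases and the growth-factor STATs were followed in 3 mouse myeloid cell lines. The set comprised 9 genes, chosen by symbol and not by level: the 4 JAKs *Jak1*, *Jak2*, *Jak3* and *Tyk2*, and the 5 genes of STAT3 to STAT6, namely *Stat3*, *Stat4*, *Stat5a*, *Stat5b* and *Stat6*. The count table listed 54347 genes, each of the 9 was found in it once, and all 9 were among the 13082 genes with enough counts to be tested. Both Hox lines derive from progenitors and were made from c-Kit-positive bone marrow cells with an estradiol-dependent Hoxb8 fusion. Hox-WT carries the wild-type genotype. Hox-URE and URE-AML carry the genotype UREd/d, which deletes the enhancer termed URE (upstream regulatory element) from the *Spi1* locus that encodes PU.1. URE-AML, labelled B22, is an AML blast-like line that was grown out from the leukemic blasts of a UREd/d mouse. The study credits Hox-WT to an earlier publication and lists Hox-URE and URE-AML as made in-house. The source of a line therefore cannot be told apart from its genotype. All 3 lines were kept in the same medium, with IL-3, IL-6 and SCF at 10 ng/ml each and, as labelled, estradiol at 1 µM (the study's methods state a different concentration), so IL-3 and IL-6, which signal through JAKs, were supplied to every group. Each line was sequenced as 3 poly-A libraries of 20331064 to 28588718 counts. Each genotype and stage is 1 line, and no source says whether its 3 libraries were grown separately, so every p-value measures the spread between libraries of a line, which may be technical.

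JAKs are tyrosine kinases that sit on the inner tails of cytokine receptors without enzyme activity of their own. When a cytokine binds, the JAKs phosphorylate the receptor, and STATs dock there, are phosphorylated, pair up and enter the nucleus as transcription factors. In myeloid progenitors, JAK2 serves the receptors of IL-3, GM-CSF and erythropoietin and acts mainly through STAT5, JAK1 serves the IL-6 family and acts mainly through STAT3, JAK3 pairs with the common gamma chain, and TYK2 serves the receptors of type I interferon, IL-10 and IL-12. STAT4 is best known downstream of IL-12, and STAT6 downstream of IL-4 and IL-13. Transcript levels do not report the phosphorylation on which the pathway turns.

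The targeted locus and the cell type markers were checked first. *Spi1* stood at 96.5 to 109.9 CPM (counts per 1000000, scaled between libraries) in Hox-WT, at 1, 1 and 0 counts in Hox-URE, and at 2.50 to 6.35 CPM in URE-AML. The 8 progenitor and myeloid markers summed to 7463 to 11096 CPM in Hox-WT, against 3439 to 5315 CPM in Hox-URE, while URE-AML had 7739 to 17451 CPM, but neither line without the URE kept all of them. In Hox-URE *Mpo*, the myeloperoxidase gene, averaged 5.04 CPM against 5042 CPM in Hox-WT, and *Ptprc*, which encodes the leukocyte antigen CD45, was at 0 counts in every library. In URE-AML the sum was carried mainly by *Elane*, the neutrophil elastase gene (7311 CPM against 181 CPM in Hox-WT), and by *Ctsg* (3712 CPM), whereas *Mpo* averaged 192 CPM, the stem cell antigen gene *Cd34* was at 1, 0 and 0 counts and *Ptprc* at 1, 0 and 1 counts. Basophil and mast cell markers summed to 607, 786 and 928 CPM in the Hox-WT libraries 1 to 3, to 1804, 3960 and 6370 CPM in those of Hox-URE, and to 43.5, 52.4 and 78.6 CPM in those of URE-AML. Of these 8 markers, *Fcer1a* was at 0 in both Hox lines and *Cma1* in Hox-WT, and library 1 held the lowest sum within Hox-URE. *Cpa3* made up most of the sums in both Hox lines (548 CPM in Hox-WT and 2665 CPM in Hox-URE). From Hox-WT to Hox-URE, a rise was called for *Cpa3* (4.86-fold), *Prss34* (0.213 to 706 CPM), *Mcpt8* (9.76-fold), *Hdc* (3.53-fold) and *Gata2* (1.99-fold). *Ms4a2* was not called between the Hox lines (edgeR adjusted p = 0.573). Single markers also departed from the order of the sums. In URE-AML *Mcpt8* was above Hox-WT by 3.79-fold (edgeR adjusted p = 0.00449). *Prss34* stood at 591, 442 and 1084 CPM in the Hox-URE libraries, where library 1 was not the lowest. The markers of other types summed to 0 to 126 CPM for dendritic, T, NK, B and erythroid cells, and to 122 to 945 CPM for monocytes and macrophages. The highest monocyte and macrophage sums, 846 to 945 CPM in Hox-URE, were almost all *Ccr2* (885 CPM), while the other 5 of these markers were lower there than in Hox-WT, among them *Adgre1* (1.43 against 274 CPM) and *Csf1r* (0 counts). In bulk samples, fewer cells of a type cannot be told apart from less RNA per cell.

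The sequences around the start sites are shown for the 3 members that differed most over the lines, to set the letters that PU.1, RUNX factors and STATs bind beside the levels. RefSeq windows (GRCm38.p6) of 300 bases, from 250 before to 50 after an annotated start, were found for all 9 members, with 12 start sites in total. Capitals mark the letters GAGGAA, the core that PU.1 and related ETS factors bind, TGTGGT, bound by RUNX factors, and TTCNNNGAA, the STAT site, on either strand, and no match overlapped another motif. The first start of *Stat4* (chr1:51986898-51987197, plus strand), the second start of *Stat5a* (chr11:100860234-100860533, plus strand) and the start of *Stat6* (chr10:127642736-127643035, plus strand) read as follows.
Stat4: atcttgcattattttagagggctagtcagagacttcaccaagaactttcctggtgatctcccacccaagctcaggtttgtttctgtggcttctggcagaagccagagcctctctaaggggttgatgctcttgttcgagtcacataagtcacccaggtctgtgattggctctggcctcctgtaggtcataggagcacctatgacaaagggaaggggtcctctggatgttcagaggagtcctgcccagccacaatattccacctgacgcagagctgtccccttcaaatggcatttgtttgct
Stat5a: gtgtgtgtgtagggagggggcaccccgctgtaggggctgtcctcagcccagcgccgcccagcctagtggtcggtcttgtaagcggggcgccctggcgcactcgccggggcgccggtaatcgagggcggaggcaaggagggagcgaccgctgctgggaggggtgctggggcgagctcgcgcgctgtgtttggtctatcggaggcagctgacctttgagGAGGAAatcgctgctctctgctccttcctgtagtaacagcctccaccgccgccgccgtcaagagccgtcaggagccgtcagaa
Stat6: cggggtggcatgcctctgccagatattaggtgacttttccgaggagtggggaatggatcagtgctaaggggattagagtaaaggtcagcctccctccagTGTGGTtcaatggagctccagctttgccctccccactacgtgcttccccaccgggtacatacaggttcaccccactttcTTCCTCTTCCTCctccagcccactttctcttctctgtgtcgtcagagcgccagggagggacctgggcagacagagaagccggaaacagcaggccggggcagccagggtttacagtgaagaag

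The *Stat4* window held none of the 3 motifs. That of *Stat5a* held GAGGAA once, and that of *Stat6* held GAGGAA 2 times, side by side on the minus strand, and TGTGGT 1 time. Over the 12 member windows, 2 held GAGGAA, 2 held TGTGGT (*Stat6* and the first start of *Stat5a*) and 0 held TTCNNNGAA. Among all 32851 mouse windows of the same length these shares were 28.3%, 16.8% and 8.30%. A match is a string of letters and not a bound site.

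*Stat5a* and *Stat5b* are neighbours on chromosome 11, with opposite orientation and 8626 bases between them, and encode closely related proteins. Their second start sites share a stretch of 65 bases with 58 identical positions, shown in capitals, on the plus strand at chr11:100860418-100860482 for *Stat5a* and on the minus strand at chr11:100822563-100822627 for *Stat5b*.
Stat5a: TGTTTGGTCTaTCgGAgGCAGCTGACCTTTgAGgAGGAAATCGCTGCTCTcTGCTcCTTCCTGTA
Stat5b: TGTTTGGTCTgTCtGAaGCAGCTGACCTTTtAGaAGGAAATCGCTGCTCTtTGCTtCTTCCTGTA

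The likeness extends into the transcripts and bears on the counts. Of all 31-base stretches in the transcripts of *Stat5a*, 11.7% also occurred in another gene, 836 of the 855 in *Stat5b*, and of those of *Stat5b* 15.2% were shared, so that reads from these parts were divided between the pair by estimation. *Stat4* shared 23.7% of its stretches with Gm28177, an overlapping gene on the same strand, but that gene held 0 to 6 counts per library. *Jak3* shared 8.29%, mainly with *Insl3* at its 3′ end, which held 0 to 7 counts. For the other members the share was 0 to 1.72%. The 3′ ends of *Stat5a* and *Stat3* overlap by 72 bases on opposite strands, which the stranded libraries can separate.

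*Jak1* had the highest level per kb of exon among the JAKs in each line. In CPM it stood at 182, 203 and 221 CPM in the Hox-WT libraries, at 279, 339 and 330 CPM in Hox-URE and at 247, 246 and 255 CPM in URE-AML. The 3 lines did not overlap, with Hox-WT lowest and Hox-URE highest. Calls required both an adjusted p under 0.05 (edgeR quasi-likelihood test, Benjamini-Hochberg over all 13082 genes) and a fold over 1.5. In Hox-URE *Jak1* was 1.56-fold higher than in Hox-WT (log2 0.65 ± 0.10 SE, adjusted p = 0.000488), a call just past the fold limit that was lost without Hox-WT library 1 (log2 0.57) or without Hox-URE library 2 (log2 0.58). URE-AML was 1.24-fold above Hox-WT (adjusted p = 0.0268) and 1.27-fold below Hox-URE (adjusted p = 0.0164), both short of the fold limit.

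*Jak2*, the kinase of the IL-3 receptor, was high in Hox-URE alone among the 3 lines. Its levels were 32.4, 32.4 and 26.1 CPM in Hox-WT, 54.6, 65.0 and 54.5 CPM in Hox-URE, and 29.2, 33.8 and 30.3 CPM in URE-AML. All Hox-URE libraries lay above all others, while Hox-WT and URE-AML overlapped. The gene rose 1.91-fold in Hox-URE against Hox-WT (log2 0.94 ± 0.12 SE, adjusted p = 0.000128) and was 1.87-fold lower in URE-AML against Hox-URE (adjusted p = 0.000131). URE-AML differed from Hox-WT by 0.04 on the log2 scale, with a 95% interval of -0.24 to 0.31.

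*Jak3*, the kinase of the common gamma chain, was not called in any comparison. It stood at 59.3, 70.6 and 67.9 CPM in Hox-WT, 70.1, 83.1 and 76.6 CPM in Hox-URE, and 70.9, 68.2 and 58.8 CPM in URE-AML. The libraries of all 3 lines overlapped. The log2 difference of Hox-URE from Hox-WT was 0.22 (95% interval -0.03 to 0.46, adjusted p = 0.123), and that of URE-AML from Hox-WT was 0.00 (-0.24 to 0.24, adjusted p = 1). These intervals do not reach the fold limit of 1.5, which is 0.58 on the log2 scale. In a test for any difference among the 3 lines, *Jak3* was the one member that did not pass (edgeR, adjusted p = 0.143).

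*Tyk2* was ordered from Hox-WT through Hox-URE to URE-AML. Its levels were 62.3, 69.9 and 60.5 CPM in Hox-WT, 85.1, 101 and 90.3 CPM in Hox-URE, and 122, 132 and 134 CPM in URE-AML. No libraries of different lines overlapped. The call was made for URE-AML against Hox-WT, with a 2.01-fold higher level in URE-AML (log2 1.01 ± 0.10 SE, adjusted p = 9.49e-06). Each of the steps in between was short of the fold limit, with 1.44-fold from Hox-WT to Hox-URE (adjusted p = 0.00112) and 1.40-fold from Hox-URE to URE-AML (adjusted p = 0.0014).

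*Stat4* varied most among the 9 genes, judged by the test over the 3 lines. It stood at 19.4, 19.1 and 21.9 CPM in Hox-WT, at 36.7, 59.3 and 67.4 CPM in Hox-URE, and at 3.47, 3.52 and 5.06 CPM in URE-AML. The lines did not overlap, although library 1 of Hox-URE lay well under the other two. The level rose 2.70-fold in Hox-URE against Hox-WT (log2 1.43 ± 0.22 SE, adjusted p = 0.00034), and in URE-AML it fell 5.01-fold below Hox-WT (log2 -2.32 ± 0.24 SE, adjusted p = 1.68e-05). Between the lines that lack the URE, it was 13.5-fold lower in URE-AML (log2 -3.76 ± 0.25 SE, adjusted p = 6.95e-07), so that the lines with one genotype lay on opposite sides of the wild type. The Hox-URE libraries had the same order for *Stat4* as for the summed basophil and mast cell markers, and the line order of these sums was also that of *Stat4*. The order within Hox-URE was not particular to these markers, since the progenitor and the B cell sums had it too. The erythroid and megakaryocyte sums had both orders (15.9, 30.7 and 41.7 CPM in Hox-URE). In Hox-URE these were almost all *Itga2b* (28.4 CPM against 2.37 CPM in Hox-WT). The other markers of that list had lower means there than in Hox-WT. For all 4 of these lists the sum was lowest in library 1 and highest in library 3 in each of the 3 lines, so the order within a line also went with the replicate number. The part of any such cells in the *Stat4* level was not tested.

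The tested genes with levels most like those of *Stat4* over the 9 libraries, by Pearson correlation of log2 CPM, were *Glul* (0.997), *Havcr2* (0.997) and *Crip1* (0.996). *Glul*, which encodes glutamine synthetase, averaged 101 CPM in Hox-WT, 421 CPM in Hox-URE and 10.6 CPM in URE-AML. The 9 points fall into 3 lines of 3 libraries, so these values mainly describe the line means.

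*Stat5a* was lowest in URE-AML. The Hox-WT libraries were close together at 48.4, 45.5 and 46.7 CPM, those of Hox-URE were at 23.7, 37.4 and 39.3 CPM, and those of URE-AML at 11.7, 11.0 and 13.1 CPM. The lines did not overlap, and library 1 of Hox-URE again lay lowest in its line. URE-AML was 3.93-fold below Hox-WT (log2 -1.97 ± 0.18 SE, adjusted p = 6.54e-06) and 2.80-fold below Hox-URE (log2 -1.49 ± 0.18 SE, adjusted p = 5.34e-05). Hox-URE was 1.40-fold below Hox-WT (log2 -0.49 ± 0.17 SE, adjusted p = 0.0338), which was short of the fold limit but passed it without Hox-URE library 2 (log2 -0.59) or library 3 (log2 -0.63).

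*Stat5b* took a different course from its neighbour. It stood at 53.2, 54.2 and 51.9 CPM in Hox-WT, 62.9, 68.4 and 85.6 CPM in Hox-URE, and 38.2, 40.5 and 35.7 CPM in URE-AML. Hox-URE was highest and URE-AML lowest, without overlap. As for *Stat4*, both the line order and the order of the Hox-URE libraries were those of the basophil and mast cell sums. They were also those of the erythroid and megakaryocyte sums, which in Hox-URE were almost all *Itga2b*. The part of any such cells in the *Stat5b* level was not tested. The call was made between URE-AML and Hox-URE, where the gene was 1.89-fold lower in URE-AML (log2 -0.92 ± 0.12 SE, adjusted p = 9.44e-05). Against Hox-WT, Hox-URE was 1.36-fold higher (adjusted p = 0.00948) and URE-AML 1.39-fold lower (adjusted p = 0.006).

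The balance within the STAT5 pair differed between the lines as well. The ratio of *Stat5a* to *Stat5b*, in CPM, was 0.909, 0.840 and 0.900 in Hox-WT, 0.377, 0.546 and 0.459 in Hox-URE, and 0.305, 0.271 and 0.366 in URE-AML. Every Hox-WT library lay above every library without the URE, and the ranges of all 3 lines were separate. The sum of the pair, which does not depend on how shared reads were divided, was 99.97 ± 1.49 CPM in Hox-WT, 106 ± 19.2 CPM in Hox-URE and 50.1 ± 1.35 CPM in URE-AML (SD, n = 3). In Hox-URE the ratio was thus lower at a sum that overlapped with that of Hox-WT, whereas in URE-AML both were lower. The ratio and the sum were described without a test.

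*Stat3* was highest in Hox-WT. Its levels were 86.0, 95.0 and 99.0 CPM in Hox-WT, 58.4, 72.4 and 74.1 CPM in Hox-URE, and 58.4, 68.6 and 72.1 CPM in URE-AML. Both lines without the URE lay below all Hox-WT libraries and overlapped with each other. The differences from Hox-WT were 1.37-fold lower in Hox-URE (log2 -0.45, adjusted p = 0.00938) and 1.41-fold lower in URE-AML (log2 -0.49, adjusted p = 0.00515), neither of which passed the fold limit. Between Hox-URE and URE-AML the log2 difference was -0.04, with a 95% interval of -0.31 to 0.23.

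*Stat6* was ordered as *Tyk2*. It stood at 70.1, 78.1 and 80.9 CPM in Hox-WT, 119, 117 and 112 CPM in Hox-URE, and 142, 153 and 149 CPM in URE-AML. No lines overlapped, and the SD was 2.98% of the mean in Hox-URE and 3.87% in URE-AML. URE-AML was 1.94-fold above Hox-WT (log2 0.95 ± 0.08 SE, adjusted p = 4.42e-06). Hox-URE was 1.52-fold above Hox-WT (log2 0.60 ± 0.08 SE, adjusted p = 0.000162), a call at the edge of the fold limit that was lost without Hox-WT library 1 (log2 0.54) or Hox-URE library 1 (log2 0.58). URE-AML was 1.28-fold above Hox-URE (adjusted p = 0.0039), short of the limit. The genes most like *Stat6* over the 9 libraries were *Fbxo6*, *Hip1r* and *Prdx5*, with correlations of 0.997, 0.994 and 0.992.

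**Figure D1:**
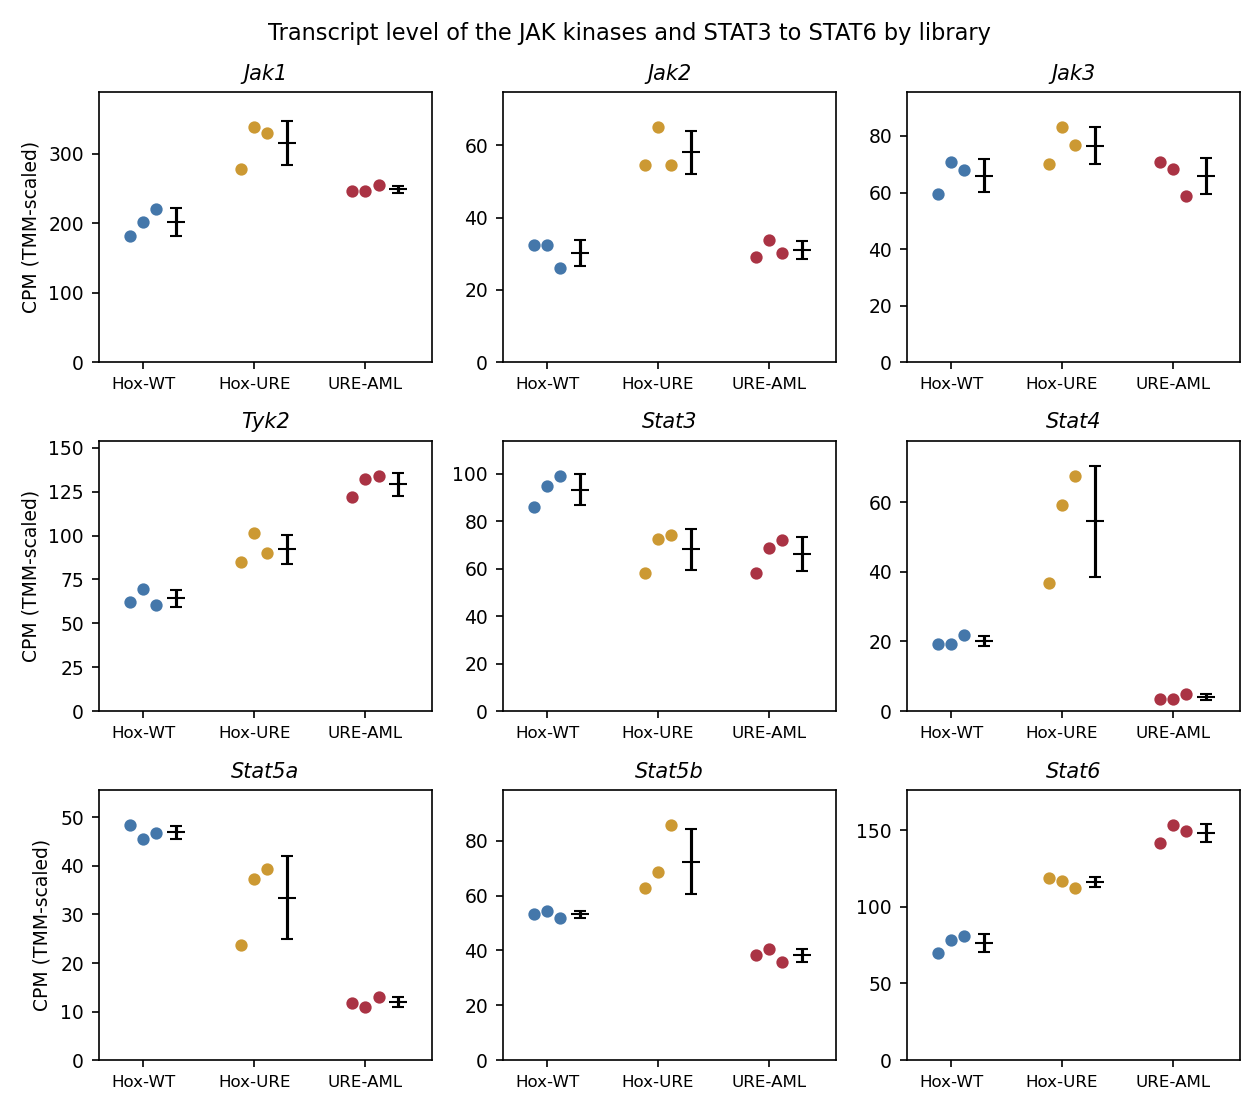
Level of each member in CPM (y axis, linear from 0) by line (x axis), where each point is a library in the order 1 to 3 and the black mark is the mean with its SD (n = 3). *Stat4* spans 3.47 to 67.4 CPM over the lines, while the libraries of *Jak3* overlap in all of them.

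Counted together, 4 of the 9 members (44.4%) were called in each of the 3 comparisons, but not the same 4. Between Hox-URE and Hox-WT, *Jak1*, *Jak2*, *Stat4* and *Stat6* were higher and none was lower. Of all tested genes, 37.2% were called in this comparison, 21.3% higher and 15.9% lower. Between URE-AML and Hox-WT, *Tyk2* and *Stat6* were higher and *Stat4* and *Stat5a* lower, against 43.2% of all genes called, 23% higher and 20.2% lower. Between URE-AML and Hox-URE, 0 members were higher and *Jak2*, *Stat4*, *Stat5a* and *Stat5b* were lower, against 42.7% of all genes, 20.3% higher and 22.4% lower. The share of members called was near the background in every case, so the number of calls says nothing particular about this set. At the adjusted p alone, 8, 7 and 7 members passed (88.9%, 77.8% and 77.8%), against 53%, 57.7% and 58% of all genes. The libraries of the lines compared likewise did not overlap for 8, 7 and 7 of the 9 members, against 60.3%, 67.6% and 62.8% among all genes. Both shares lay above the background, by few genes in a set of 9. The background was not matched for level. Most members lay above the middle of the tested genes by mean CPM, *Jak1* at percentiles 93.1 to 95.8, though *Stat4* in URE-AML was at 26.8. The median size of the log2 difference, 0.52, 0.49 and 0.49 for the members, was near the 0.49, 0.56 and 0.55 of all genes. The 3 comparisons share their lines, so their counts are not independent.

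**Figure D2:**
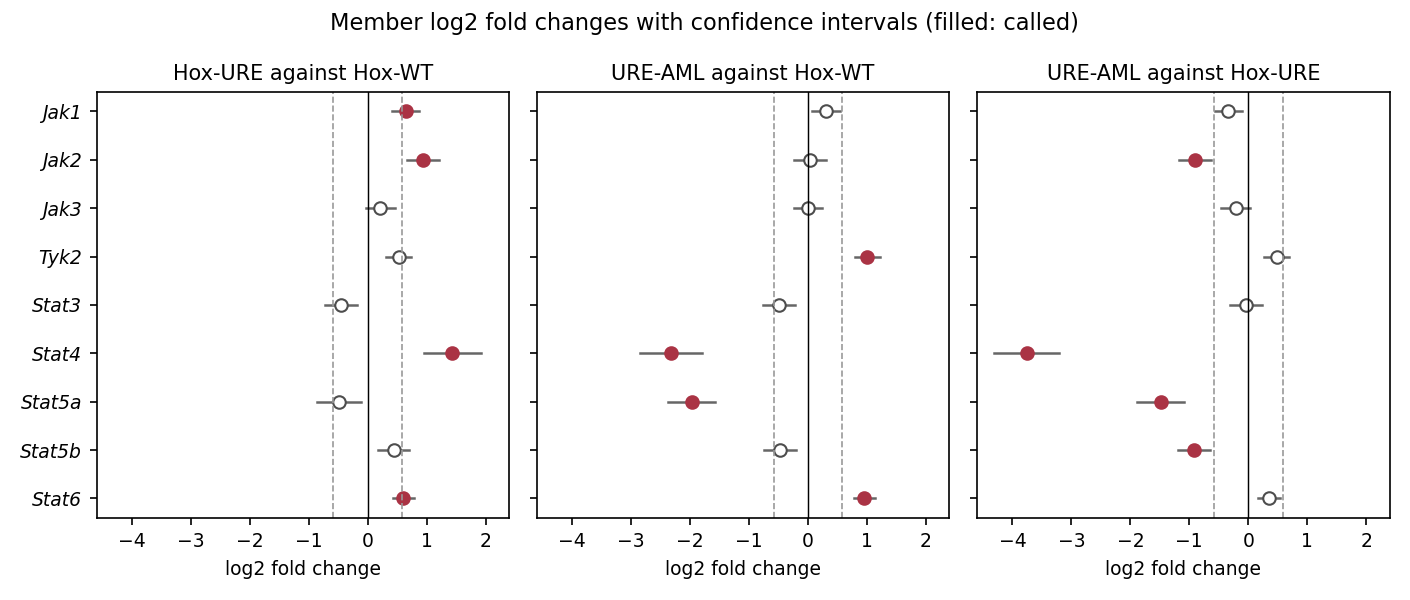
Log2 fold change of each member (x axis) in the 3 comparisons, with 95% intervals as lines, called genes filled, and dashed lines at a fold of 1.5. The interval of *Stat4* lies to the right of the limit in Hox-URE against Hox-WT and to the left of it in both comparisons with URE-AML.

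Levels of different genes were ranked per kilobase of annotated exon. Whether the deposited counts had been scaled for transcript length is not given in the sources used here, and the values per kb take them as not scaled. On this scale *Jak1* led in Hox-WT with 27.9 ± 2.73 CPM per kb (SD, n = 3), followed by *Stat6* with 17.4 ± 1.27 and *Jak3* with 12.3 ± 1.11. *Stat3*, *Stat5b* and *Tyk2* came next at 9.80, 9.59 and 9.35 CPM per kb and did not differ beyond their spread. *Stat5a*, *Jak2* and *Stat4* were lowest at 6.57, 6.02 and 5.20 CPM per kb, with overlap between neighbours. In Hox-URE *Jak1* and *Stat6* again led, with 43.7 ± 4.45 and 26.4 ± 0.787 CPM per kb. *Jak3*, *Stat4*, *Tyk2*, *Stat5b* and *Jak2* overlapped from one to the next between 14.3 and 11.5 CPM per kb, and *Stat3* and *Stat5a* were lowest at 7.17 and 4.69. In URE-AML *Jak1* and *Stat6*, with 34.5 ± 0.696 and 33.6 ± 1.30 CPM per kb, could not be separated, *Tyk2* followed at 18.8 ± 0.949, and *Stat5a* and *Stat4* were lowest at 1.67 ± 0.150 and 1.04 ± 0.234. With the mean length of coding transcripts in place of the exons, *Jak1* was above *Stat6* without overlap in all 3 lines and these were again the leading pair, but *Stat5a* moved above *Stat5b* in Hox-WT, so the order within the middle of the list depends on the length.

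Within the JAK transcript pool, Hox-WT and Hox-URE were alike for *Tyk2* and URE-AML stood apart. *Tyk2* made up 17.5%, 17.6% and 15.4% of the summed JAK level per kb in Hox-WT, 16.5%, 16.4% and 15.7% in Hox-URE, and 25.0%, 26.4% and 27.1% in URE-AML. *Jak1* was the leading JAK in every line, with 50.2% ± 2.81, 52.6% ± 1.52 and 48.1% ± 1.17 (SD, n = 3). *Jak2* made up 10.9% ± 1.71, 13.9% ± 0.874 and 8.60% ± 0.564. For *Jak3* the share was 22.1% ± 0.704 in Hox-WT, against 17.3% ± 0.210 in Hox-URE and 17.2% ± 1.71 in URE-AML, so its share was lower in both lines without the URE while its own level was not called. The summed JAK level was 55.6 ± 3.37 CPM per kb in Hox-WT, against 83.0 ± 7.60 in Hox-URE and 71.8 ± 0.926 in URE-AML.

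The STAT pool was reordered more. *Stat6* made up 34.4%, 36.4% and 36.5% of it in Hox-WT, 47.2%, 39.6% and 35.6% in Hox-URE, and 67.4%, 67.2% and 66.4% in URE-AML. All URE-AML libraries were above all others, and Hox-URE overlapped with Hox-WT. *Stat4* made up 10.7% ± 0.561, 21.2% ± 4.13 and 2.06% ± 0.434 (SD, n = 3). *Stat5a* made up 13.6% ± 0.915, 7.10% ± 1.13 and 3.33% ± 0.319, with no overlap between lines, and *Stat5b* made up 19.8% ± 1.07, 19.9% ± 1.58 and 13.7% ± 0.967. *Stat3* made up 20.2% ± 0.618, 11.0% ± 0.332 and 13.9% ± 1.01. The summed level of these 5 genes was 48.5 ± 2.01 CPM per kb in Hox-WT, against 65.3 ± 7.33 in Hox-URE and 50.2 ± 2.12 in URE-AML. The shares of different lines were compared by their ranges and without a test, and they do not depend on the scaling between libraries. They do depend on the length used. With the mean length of coding transcripts, the JAK pool held, in the line order used above, *Jak1* at 65.1%, 67.5% and 62.2%, *Jak2* at 6.49%, 8.17% and 5.10%, and *Jak3* at 14.4%, 11.1% and 11.1%. In the STAT pool of Hox-WT, *Stat5b* then made up 10.9% and *Stat5a* 20.3%, so that *Stat5a* held the larger share of the pair there. In Hox-URE the share of *Stat5a* was 11.6% with this length instead of 7.10%, and that of *Stat5b* was nearly the same, with a ratio of 0.971 between them. In URE-AML *Stat5b* made up 7.60%. The order of the lines by mean share was kept for all members but *Jak3*, whose means in Hox-URE and URE-AML changed places.

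**Figure D3:**
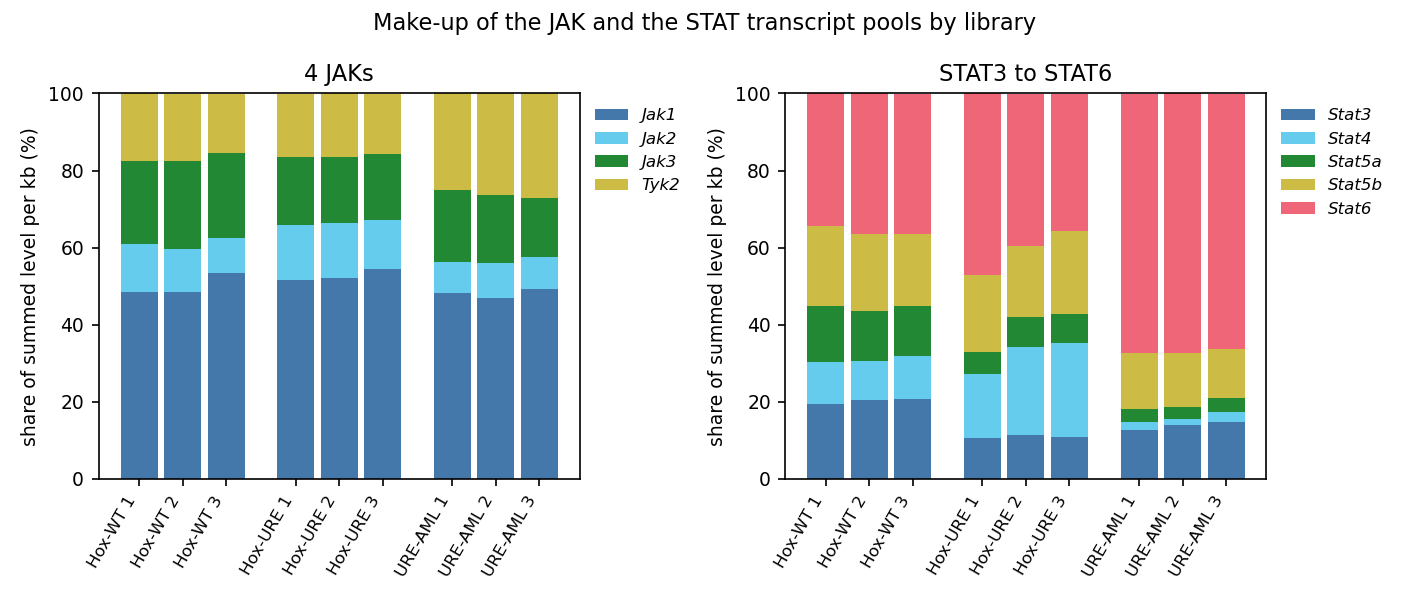
Share of each gene in the summed level per kb (y axis, percent) of the 4 JAKs and of STAT3 to STAT6, with 1 bar per library. *Tyk2* takes 25.0% to 27.1% of the JAK pool and *Stat6* 66.4% to 67.4% of the STAT pool in URE-AML.

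The members lie on 7 chromosomes, and the median log2 difference over all tested genes of a member's chromosome was between -0.09 and 0.13 in the 3 comparisons. *Stat2*, a STAT of the interferon response that lies outside the set, stood at 6.82, 6.11 and 4.70 CPM in Hox-WT, 9.76, 11.7 and 12.8 CPM in Hox-URE, and 15.4, 17.5 and 15.6 CPM in URE-AML. No libraries of different lines overlapped, and the order was that of *Tyk2* and *Stat6*. The gene was 1.94-fold higher in Hox-URE (log2 0.96 ± 0.17 SE, adjusted p = 0.000947) and 2.75-fold higher in URE-AML (log2 1.46 ± 0.17 SE, adjusted p = 4.21e-05) than in Hox-WT. Between URE-AML and Hox-URE it was 1.42-fold higher (adjusted p = 0.0238), short of the fold limit, but passed the limit without Hox-URE library 3.

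Of 32 receptors that signal through JAKs, 25 could be tested. Between Hox-URE and Hox-WT 10 were higher and 11 lower, with a median log2 difference of -0.71 (0.00 over all genes), where 37.2% of all genes were called, 21.3% higher and 15.9% lower. *Csf2rb*, the common beta chain through which IL-3, GM-CSF and IL-5 engage JAK2, rose from 164 ± 9.02 to 1952 ± 74.9 CPM (11.9-fold, adjusted p = 4.59e-08), and *Il3ra*, the alpha chain that binds IL-3, rose from 11.3 to 109 CPM (9.63-fold, adjusted p = 8.09e-07). The mouse has a near-identical copy of the beta chain, *Csf2rb2*, so the division of reads between these copies is uncertain. *Csf2rb2* stood at 64.8, 372 and 675 CPM in Hox-URE against a mean of 17.9 CPM in Hox-WT (20.7-fold, adjusted p = 0.000368), with library 1 far under the other two. *Il12rb1*, a chain of the IL-12 receptor, rose from 1.31 to 10.5 CPM. In the other direction, *Csf3r*, the G-CSF receptor, fell from 27.5 to 3.07 CPM, *Ifngr1*, a chain of the interferon gamma receptor, from 43.6 to 16.1 CPM, and *Il6ra*, which binds IL-6, from 3.94 CPM to 1, 0 and 1 counts. Of the other receptor genes of the cytokines supplied, *Csf2rb2*, *Il6st* and *Kit* were chosen after their values were seen. *Il6st*, the signalling chain of the IL-6 receptor, was at 298, 205 and 377 counts in Hox-WT and 1, 90 and 6 counts in Hox-URE (adjusted p = 0.0173), and *Kit*, the SCF receptor, which has kinase activity of its own and was not on this list, fell from 175 to 43.0 CPM (4.05-fold, adjusted p = 9.74e-07).

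Between URE-AML and Hox-WT 9 receptors were higher and 9 lower (median log2 -0.15), where 43.2% of all genes were called. Of the IL-3 receptor chains, *Csf2rb* was above Hox-WT by 3.04-fold (adjusted p = 3.39e-06) and *Il3ra* by 3.35-fold (adjusted p = 3.3e-05), while *Csf2rb2* was not called (21.0 against 17.9 CPM, adjusted p = 0.77) and its libraries overlapped. *Il6ra* and *Kit* were lower, by 1.74-fold (adjusted p = 0.0367) and 1.80-fold (adjusted p = 0.000217), and *Il6st*, at 5.87 CPM against 10.5 CPM, was not called (adjusted p = 0.39). *Ifngr1* rose from 43.6 to 366 CPM (8.39-fold, adjusted p = 1.5e-08), *Il12rb1* from 1.31 to 29.5 CPM, and *Ghr*, the growth hormone receptor, from 3, 0 and 0 counts to 62.6 CPM. *Il10rb* and *Csf2ra* fell from 69.3 to 16.4 and from 21.0 to 9.23 CPM, and *Il5ra*, at 2.54 CPM in Hox-WT, was at 0 in all URE-AML libraries, at least 19.4-fold lower against a floor of 3 counts per library. Between URE-AML and Hox-URE 9 were higher and 7 lower (median log2 0.02), where 42.7% of all genes were called. Here *Csf2rb* was 3.91-fold lower in URE-AML (499 ± 91.7 CPM), *Il11ra1* fell from 51.8 to 9.59 CPM and *Il10ra* from 8.19 CPM to 0, 1 and 1 counts, and *Ifngr1* was 22.6-fold higher. *Il12rb2*, the partner of *Il12rb1* whose signal passes to STAT4, was at 0 in all Hox-URE libraries and at 1.52 CPM in URE-AML, at least 11.8-fold higher, so that the line with the most *Stat4* had no count of this chain. *Il6ra* was at 2.26 CPM in URE-AML.

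All 19 inhibitors of the pathway were tested. In Hox-URE 7 were higher and 3 lower than in Hox-WT, in URE-AML 5 were higher and 7 lower than in Hox-WT, and between URE-AML and Hox-URE 3 were higher and 5 lower. These 10, 12 and 8 of 19 stand against 37.2%, 43.2% and 42.7% of all genes called, and the last share, 42.1%, is near the background. *Socs3*, which blocks JAKs at receptors of the IL-6 family, stood at 12.2, 11.5 and 11.1 CPM in Hox-WT, 114, 73.5 and 73.7 CPM in Hox-URE, and 184, 174 and 149 CPM in URE-AML. *Cish*, an inhibitor that STAT5 induces, stood at 18.1, 25.0 and 22.7 CPM in Hox-WT, 139, 110 and 126 CPM in Hox-URE, and 156, 131 and 120 CPM in URE-AML. Both were higher in each line without the URE than in any Hox-WT library, *Socs3* by 7.50-fold and 14.6-fold and *Cish* by 5.68-fold and 6.19-fold, with edgeR adjusted p of 7.25e-07 and 5.92e-08 for *Socs3* and 6.56e-07 and 2.51e-07 for *Cish*. The call of *Cish* in URE-AML was thus made in the line with the lowest *Stat5a* and *Stat5b*.

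*Usp18*, which restrains type I interferon receptors, rose 18.0-fold in Hox-URE, from 0.419 to 7.63 CPM, and was at 0.157 CPM in URE-AML. *Ptpn1*, a phosphatase of JAK2 and TYK2, reached 191 CPM in URE-AML against 85.8 CPM in Hox-WT, 2.23-fold more. *Socs5* and *Cbl* fell in both lines against Hox-WT, *Socs5* 5.16-fold and 2.72-fold and *Cbl* 1.57-fold and 2.46-fold. *Ptprc*, a phosphatase that can act on JAKs, stood at 158 ± 10.2 CPM in Hox-WT and at 0 counts in Hox-URE, at least 1225-fold lower against the floor, and at 1, 0 and 1 counts in URE-AML. *Sh2b3*, which restrains JAK2, and *Socs2* were lower in URE-AML by 3.70-fold and 2.25-fold, both against Hox-URE.

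Among 16 genes known as STAT targets, which include 3 of the inhibitors above, Hox-URE against Hox-WT had 8 higher and 4 lower, and a median log2 difference of 0.88. In URE-AML 7 were higher and 3 lower than in Hox-WT (median 0.45), and between URE-AML and Hox-URE 6 were higher and 5 lower (median 0.36), so that 12, 10 and 11 of the 16 were called against the same shares of all genes. The D cyclins, which drive entry into the cell cycle, went apart. *Ccnd3* rose from 205 ± 5.33 CPM in Hox-WT to 640 ± 9.96 in URE-AML (3.13-fold, adjusted p = 8.68e-08), *Ccnd2* fell 3.27-fold in Hox-URE (246 against 75.3 CPM) and was at 260.1 CPM in URE-AML, and *Ccnd1* fell from 6.61 CPM to 1, 0 and 0 counts in Hox-URE and to 4, 1 and 1 counts in URE-AML. *Myc*, a driver of growth, fell 2.13-fold in Hox-URE and 1.77-fold in URE-AML. *Osm*, a cytokine gene that STAT5 can induce, was at 48.98 CPM in Hox-URE against 7.21 in Hox-WT and 6.04 in URE-AML. *Pim2*, a survival kinase, was 2.61-fold lower in URE-AML against Hox-URE, and the repressor *Bcl6* 7.68-fold higher. *Pim2* averaged 8.30 CPM in Hox-WT, 14.6 CPM in Hox-URE and 5.57 CPM in URE-AML.

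**Figure D4:**
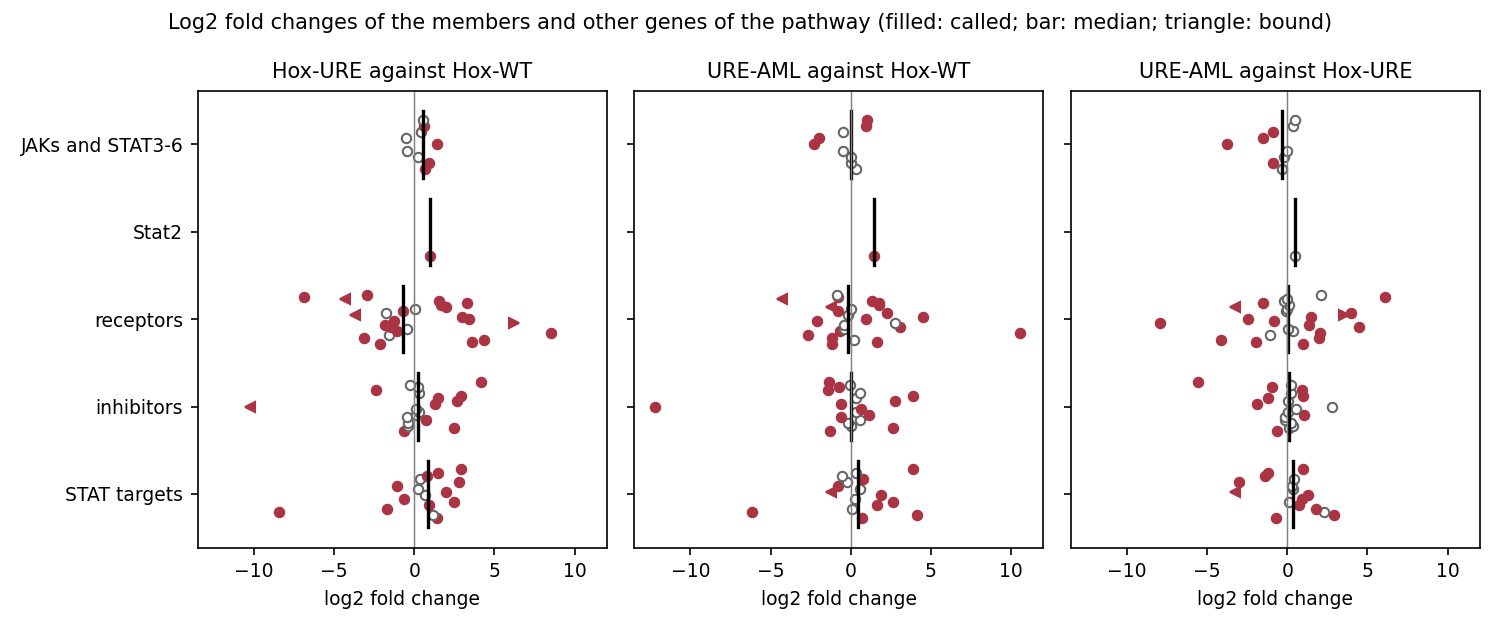
Log2 fold changes (x axis) of the 9 members, *Stat2*, and the tested receptors, inhibitors and STAT targets (rows) in the 3 comparisons, with called genes filled and the median of each row as a bar. Triangles mark bounds for genes at 0 in all libraries of a line, and the members span a narrower range, -3.76 to 1.43, than the receptors.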

How the data were processed

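Stranded poly-A libraries were sequenced, 3 for each of the 3 lines (20331064 to 28588718 counts). The authors quantified reads with Salmon, aggregated them to genes with tximport, and deposited expected counts (estimated counts, whole numbers in the file, with no scaling for depth). The genome build was GRCm38, per the labels. The transcriptome release, and whether tximport scaled the counts for transcript length, are not given in the sources used here. A switch between long and short transcripts could therefore move a count.

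The members were named by symbol and not chosen from values, and the lists were chosen with earlier results of these data known. Counts of all 9 libraries were fitted with edgeR 4.0.16 (R 4.3.3), with TMM scaling, filterByExpr with a minimum count of 10, one quasi-likelihood model with a coefficient per line, two-sided F tests and Benjamini-Hochberg adjustment over 13082 genes. Calls needed an adjusted p under 0.05 together with a fold over 1.5, as in the study. CPM were scaled with TMM factors. Levels per kb used the union of exons in GENCODE M21 (GRCm38). The named list genes were, per list and comparison, at most the 3 called genes of smallest p per direction, with *Stat2* always. A further pathway gene is not reported here. Log2 likeness was computed with a prior count of 2, for the 2 members with the largest F over the lines. *Spi1* and marker genes were named as checks. A floor of 3 counts per library covers counting error only.

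The fit was tested on simulated counts. No libraries were duplicates, since replicates differed by more than sampling noise. Samples with the same replicate number did not reach a correlation of 0.1 in every pair (r from 0.01 to 0.27), so the numbers were not taken as pairs, and the fit with a replicate block was an alternative. DESeq2 1.42.0, other scalings, filters, call rules and libraries left out in turn were the alternatives. Figures were drawn with matplotlib 3.10.9.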

Additional observations from a re-analysis of the deposited data

How the results depend on the processing

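The same 4 members were called in each comparison with DESeq2-style size factors, no filter, at least 10 counts in every library, the 6 libraries compared, DESeq2 and the replicate block. The labels do not say what a replicate number shares, and the correlations of same-numbered libraries, all above 0, were too low in some pairs to take the numbers as pairs. Still, 8 of 9 correlated best with their own number, a hint of a shared replicate effect from the data and not the design, and under the block 4, 4 and 4 members were called. Without a fold threshold 8, 7 and 7 members (53%, 57.7% and 58% of all genes) passed in Hox-URE against Hox-WT, URE-AML against Hox-WT and URE-AML against Hox-URE. Tested against a fold of 1.5, 2 members remained in Hox-URE against Hox-WT, *Jak2* and *Stat4*. With each replicate left out in turn, 2 to 5, 4 to 4 and 4 to 4 were called, with 2 without Hox-WT replicate 1. With library size only, which moved the median of all genes by -0.08 in Hox-URE against Hox-WT and by 0.11 in URE-AML against Hox-URE, *Jak1* (log2 0.54) and *Stat6* (0.50) lost their calls in Hox-URE, and *Stat5a* (-0.60) and, between URE-AML and Hox-URE, *Tyk2* (0.60) gained one. Upper-quartile factors left *Stat6* at 0.58 in Hox-URE.

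Signs turned for 3 uncalled differences near 0. *Jak3* in URE-AML against Hox-WT was -0.036 with upper-quartile factors, -0.0016 with the 6 libraries compared and -0.073 to 0.076 without 1 replicate. *Jak2* in the same comparison was -0.072 to 0.087 without 1 replicate. *Stat3* in URE-AML against Hox-URE was 0.071 with library size only and -0.15 to 0.046 without 1 replicate.

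*Stat2* was called (1 instead of 0) in URE-AML against Hox-URE with library size only or no fold threshold, and leaving out 1 replicate gave 0 to 1 there. With at least 10 counts in every library, which tests fewer genes, 10 instead of 16 receptors were called between URE-AML and Hox-URE. With the mean length of coding transcripts, the per kb ratio of *Stat5a* to *Stat5b* was 1.86 in Hox-WT, then 0.971 in Hox-URE and 0.662 in URE-AML instead of 0.686, 0.358 and 0.244, so its order over the lines was kept but not which gene was higher, and 54 of the 57 per kb levels, shares and ratios moved by more than the spread between libraries. *Stat4* at 3.47 to 5.06 CPM in URE-AML rests on the fewest reads among the members.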
